A study of Homo sapiens with 8 samples.

Results

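Promoters of the zinc finger genes on the long arm of chromosome 19 were examined for trimethylation of lysine 9 of histone H3 (H3K9me3). Members were the windows on chromosome 19 that started at position 25000000 or beyond in hg19 and carried a symbol beginning with ZNF, ZFP, ZSCAN or ZKSCAN and a number, with ZFP36 left out. There were 181 such windows for 149 genes, of 38157 windows for 24599 genes in all, and for each gene the window holding the most reads was used. They ran from ZNF536 (start 30861328) to ZNF446 (end 58987895). The cells were SiHa, an established cervical squamous carcinoma line, seeded on a porous transwell membrane for 10 h and then split into migrated and non-migrated fractions. The 4 groups were H3K9me3 of migrated cells, H3K9me3 of non-migrated cells, input (sonicated chromatin without antibody) of migrated cells and input of non-migrated cells, each with 1 library in each of 2 paired replicate sets. The labels give no genetic change and no other treatment for any of the 4 groups. Set 1 was prepared with a kit and gel extraction and was deduplicated, while set 2 was prepared with beads and another kit.

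Most genes of this family code for C2H2 zinc finger proteins, and many of these carry a KRAB domain, which recruits TRIM28 (KAP1). TRIM28 in turn brings SETDB1, which writes H3K9me3, and HP1 proteins, which bind it. The human genes lie in tandem clusters that arose by duplication, many of them on chromosome 19, and these clusters are known as places where H3K9me3 also covers the zinc finger genes themselves. The clusters hold paralogs of similar sequence, so reads that fit several copies could have been placed on a neighbour or dropped, and single values within a cluster carry that uncertainty.

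The members held 1023 reads in H3K9me3 of migrated cells and 1864 in H3K9me3 of non-migrated cells in set 1, against 3096 in input of migrated cells and 1948 in input of non-migrated cells. In set 2 they held 13222 and 13806 reads in the H3K9me3 libraries of migrated and non-migrated cells, against 7697 and 8564 in the inputs of migrated and non-migrated cells. Totals over all windows ran from 88028 to 1137376 reads in the H3K9me3 libraries and from 388191 to 1729061 in the inputs, with the lowest in H3K9me3 of migrated cells of set 1. The median member therefore had 6 reads in that library, where 9 members had none, against 72 in H3K9me3 of migrated cells of set 2. Values below are log2 H3K9me3 over input on a scale centred by trimmed means over all windows (TMM), on which the median of all windows lay at -0.35. A negative value is thus a level below the 0 of this scale and not an absence of the mark. Of all windows 40.0% lay above 0, so a value between -0.35 and 0 is still above the median window.

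The promoters at the ends of the range are shown beside the values that follow, although a RefSeq start can differ from the start of a window. They are the 250 bases before the RefSeq start of the 2 highest and the 2 lowest called members whose window lay on the gene's own strand and which had a RefSeq promoter entry. ZNF814 (chr19:57889038-57889287, minus strand) and ZNF329 (chr19:58150790-58151039, minus strand) were enriched for H3K9me3. ZNF580 (chr19:55640752-55641001, plus strand) and ZNF296 (chr19:45076479-45076728, minus strand) were lower than the centre. Positions and letters are from RefSeq on GRCh38.p14, not on the hg19 of the windows. The match was by symbol and does not place the bases inside the window. The windows of ZNF814 and ZNF329 begin at 58400342 and 58666377 (hg19), and their printed promoters lie nearer to each other than that. The bases shown for ZNF329 therefore seem to lie outside its window. Capitals mark CCGGAAG, the core to which ETS factors such as GABPA bind, on either strand.
ZNF814: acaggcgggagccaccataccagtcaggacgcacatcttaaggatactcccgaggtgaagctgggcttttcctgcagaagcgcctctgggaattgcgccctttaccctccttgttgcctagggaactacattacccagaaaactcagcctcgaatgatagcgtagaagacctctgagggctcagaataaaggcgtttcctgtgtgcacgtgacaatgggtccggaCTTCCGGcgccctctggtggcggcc
ZNF329: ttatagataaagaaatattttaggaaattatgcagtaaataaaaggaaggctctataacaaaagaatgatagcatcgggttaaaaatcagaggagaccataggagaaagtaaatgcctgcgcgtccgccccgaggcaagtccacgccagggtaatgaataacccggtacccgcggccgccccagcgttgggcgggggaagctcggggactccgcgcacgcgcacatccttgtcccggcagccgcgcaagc
ZNF580: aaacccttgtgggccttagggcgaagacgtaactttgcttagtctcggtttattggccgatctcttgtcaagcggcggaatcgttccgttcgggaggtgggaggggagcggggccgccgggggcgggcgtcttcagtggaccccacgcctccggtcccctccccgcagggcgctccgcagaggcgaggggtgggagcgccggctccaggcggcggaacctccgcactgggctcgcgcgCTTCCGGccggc
ZNF296: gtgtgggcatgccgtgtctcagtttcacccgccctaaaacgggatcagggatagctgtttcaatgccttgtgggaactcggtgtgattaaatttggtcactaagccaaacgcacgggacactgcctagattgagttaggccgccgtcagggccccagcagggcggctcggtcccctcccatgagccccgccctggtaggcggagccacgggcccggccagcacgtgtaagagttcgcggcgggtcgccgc
In these 250 bases ZNF814 had 13 CG dinucleotides and ZNF329 had 20, while ZNF580 had 30 and ZNF296 had 20. The CCGGAAG core was found 1 time in an enriched promoter, ZNF814, and 1 time in a lower promoter, ZNF580.

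H3K9me3 over input was higher at the zinc finger promoters of the arm than at most promoters. Over both fractions and sets, 84 of 149 members were enriched and 11 were lower at an adjusted p of 0.05 (limma, Benjamini-Hochberg over 36440 windows), against 11.9% and 31.3% of all windows. The other 54 members passed in neither direction. Each member's window was chosen by its reads over all 8 libraries, H3K9me3 included, which can favour windows rich in the mark. Among all genes with 1 window chosen alike, 14.2% were enriched and 28.2% lower, with a median of -0.20. With the window chosen by input reads alone, 82 members were enriched and 14 lower. The median member lay at 1.13 (2.19-fold over input) and the median window at -0.35 (0.787-fold), with a range among members from -2.74 at ZNF580 to 2.77 at ZFP28. In 81 members all 4 H3K9me3 libraries lay above all 4 inputs, in scaled RPM (reads per 1000000 of the TMM-scaled library), and in 13 they all lay below, against 10.4% and 28.3% of all windows. Across the 149 members the levels of set 1 and set 2 correlated at r = 0.89, as a description over genes that share libraries. All 149 members passed the filter on low reads, so no member was lost from these counts. The scale matters for the count. With the library constants of the deposited values in place of TMM, the median of all windows shifted to -1.30. In that setting 25 members were enriched and 26 lower (266 and 18837 of all 36440 windows), and the median member lay at 0.21. Those constants run from 0 to 0.748 in log2, while window totals run from 88028 to 1729061 reads. They thus leave most of the difference in depth between libraries uncorrected. A fit to 1 set alone has 1 library per group and treats the 2 fractions as replicates, so its calls are not given. In such fits, made after the greater depth of set 2 was seen, the median member lay at 1.52 in set 2 and 1.00 in set 1.

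**Figure D1:**
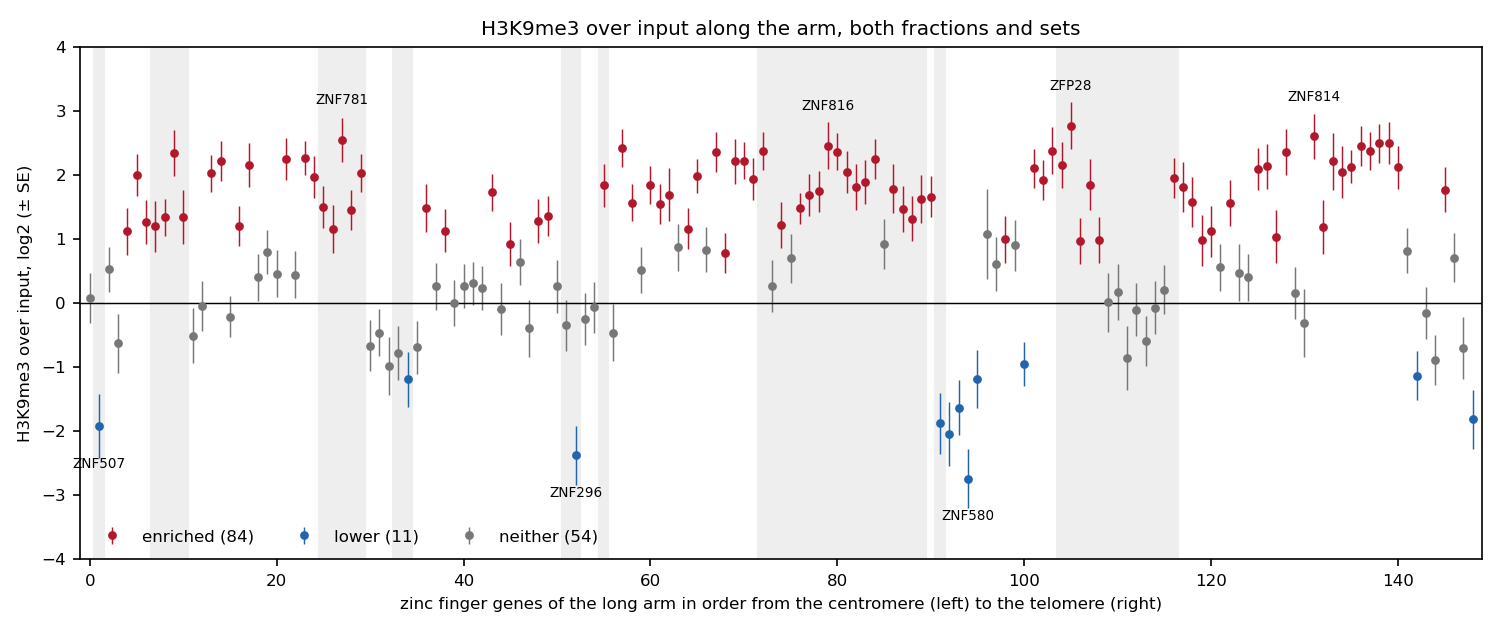
H3K9me3 over input (log2 with SE, both fractions and sets) of the 149 zinc finger genes, in order along the arm, with alternate 1 Mb bins shaded. Enriched genes stand in runs, and 5 lower genes in a row, with ZNF580 the lowest at -2.74, stand between them.

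ZFP28, a KRAB zinc finger gene, had the highest level. It held 77.1 and 239 scaled RPM in H3K9me3 of migrated cells (sets 1 and 2) and 147 and 185 in H3K9me3 of non-migrated cells, against 18.9 and 32.0 in input of migrated cells and 12.9 and 34.8 in input of non-migrated cells. Every H3K9me3 library lay above every input, and the level was 2.77 ± 0.37 (SE, 8 libraries), or 6.84-fold, with an adjusted p of 1.3e-06 (limma). ZNF814 followed with 96.3 and 121 in H3K9me3 of migrated cells and 130 and 117 in H3K9me3 of non-migrated cells, against 18.9 and 13.4 in input of migrated cells and 18.0 and 27.1 in input of non-migrated cells. Its groups did not overlap either, and its level was 2.61 ± 0.35 (6.09-fold). The next were ZNF781 at 2.55, ZNF329 at 2.50, ZSCAN18, a SCAN zinc finger gene silenced by DNA methylation in gastrointestinal tumours, at 2.50, ZNF816 at 2.46 and ZSCAN1 at 2.45. ZNF667, ZNF135 and ZNF577 completed the 10 highest with a mean of at least 10 input reads, at 2.38, 2.38 and 2.42. In each of these 10 genes all 4 H3K9me3 libraries lay above all 4 inputs. They were taken from called members above 0 in all 4 pairs of libraries, so much of this separation follows from the choice. Input of non-migrated cells of set 1 held only 4 reads in ZNF781 and in ZNF816 and 5 in ZFP28. The window of ZNF667 lay on the strand opposite to the gene.

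The lowest member was ZNF580, a gene described in endothelial cells. It held 0 and 3 reads in H3K9me3 of migrated cells (sets 1 and 2) and 1 and 16 in H3K9me3 of non-migrated cells, against 26 and 71 in input of migrated cells and 15 and 103 in input of non-migrated cells. After scaling, each H3K9me3 library lay below each input, and the level was -2.74 ± 0.47 (0.150-fold, adjusted p = 2.2e-05, limma). ZNF296 followed at -2.38, ZNF579 at -2.05, ZNF507 at -1.92 and ZNF628 at -1.88, each with H3K9me3 libraries that lay below all inputs. The other 6 lower members were ZNF446 at -1.81, ZNF784 at -1.63, ZNF526 at -1.19, ZNF581 at -1.18, ZSCAN22 at -1.14 and ZSCAN5A at -0.95. Of the 11 lower members, ZNF628, ZNF579, ZNF784, ZNF580 and ZNF581 were consecutive members on the arm. The rule for members has its edge in a stretch without zinc finger genes. Just inside it lay ZNF536 at 0.08 and ZNF507 at -1.92, and just outside it, towards the centromere, ZNF726 at 1.56 and ZNF254 at 1.80.

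Members with a known role were followed whatever their level. ZNF274, which binds the ends of other zinc finger genes and brings TRIM28 and SETDB1 there, held 125 and 188 scaled RPM in H3K9me3 of migrated cells and 90.4 and 168 in H3K9me3 of non-migrated cells, against 20.4 and 42.9 in input of migrated cells and 23.2 and 47.1 in input of non-migrated cells. Its own promoter was thus enriched in every library, at 2.12 ± 0.34 (4.34-fold, adjusted p = 1.1e-05, limma). ZNF671, whose DNA methylation is used as a marker in cervical screening, held 77.1 and 122 in H3K9me3 of migrated cells and 84.8 and 115 in H3K9me3 of non-migrated cells, against 16.0 and 18.6 in input of migrated cells and 30.9 and 27.7 in input of non-migrated cells. All H3K9me3 libraries of ZNF671 lay above all inputs, and the level was 2.14 ± 0.35 (4.40-fold). ZNF154, methylated in many tumour types, lay at 2.10 and ZNF382, a repressor methylated in carcinomas, at 2.03. ZNF473, which takes part in the 3′ processing of histone transcripts, lay at 1.84, ZNF350 (ZBRK1), a partner of BRCA1, at 1.84, and the imprinted ZNF331 at 1.66. Each of these 7 genes was enriched, with H3K9me3 and input libraries that did not overlap.

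Another 6 members with known roles were called in neither direction. ZNF420, an inhibitor of p53, had 57.8 and 21.7 scaled RPM in H3K9me3 of migrated cells and 56.5 and 33.2 in H3K9me3 of non-migrated cells, against 23.3 and 37.1 in input of migrated cells and 25.7 and 36.8 in input of non-migrated cells. H3K9me3 lay above input in set 1 and below it in set 2, so the groups overlapped, and the level was 0.40 ± 0.37. ZNF224, a repressor of aldolase A, lay at -0.09 ± 0.41, ZNF175, studied in human immunodeficiency virus infection, at -0.46 ± 0.45, and ZNF45 at 0.26 ± 0.36. ZNF536, a brake on neuronal differentiation, lay at 0.08 ± 0.39 and ZNF444, a SCAN zinc finger gene, at 0.60 ± 0.42. That window of ZNF444 lay on the strand opposite to the gene, and its window on the gene's own strand was lower, at -1.72. Each of these 6 levels changed sign under at least 1 other setting.

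Members named ZSCAN carry a SCAN domain, through which these proteins pair with one another, in place of or beside KRAB. Of the 7, ZSCAN18, ZSCAN1 and ZSCAN5B (0.99) were enriched, ZSCAN5A and ZSCAN22 were lower, and ZSCAN5C (0.90) and ZSCAN4 (0.47) passed in neither direction. Zinc finger genes of the arm with other symbols were not members, and 7 of the 8 listed were tested. Of these ZIK1 at 2.03, the imprinted ZIM2 at 1.94, HKR1 at 1.73 and ZIM3 at 1.31 were enriched, while ZBTB32 at -3.61 and MZF1 at -2.80 were lower. Of 16 tested genes of the TRIM28 silencing pathway, 4 were lower (SUV39H2, TRIM28, CHD3 and CHD4, limma), or 25% against 28.2% of all genes, and the highest, HDAC2 at 1.06 ± 0.45, did not pass (adjusted p = 0.057). TRIM28 itself lies on the same arm. It held 0 and 9 reads in H3K9me3 of migrated cells and 1 and 11 in H3K9me3 of non-migrated cells, against 21 and 65 in input of migrated cells and 14 and 58 in input of non-migrated cells, and its level was -2.17 ± 0.47 (0.222-fold).

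Set against other groups of genes, the members lay above their neighbours and near the zinc finger genes of the short arm. When reads were summed over members, log2 H3K9me3 over input was 1.13 and 1.54 in migrated cells (sets 1 and 2) and 1.07 and 1.16 in non-migrated cells, each with a counting SE of 0.052 or less. The 614 other genes of the long arm include the 7 tested zinc finger genes with other symbols. These 614 genes gave 0.04 and 0.07 in migrated cells and 0.09 and -0.02 in non-migrated cells. The members lay above them by 1.09 and 1.46 in migrated cells and by 0.98 and 1.18 in non-migrated cells. They lay above the 253 zinc finger genes of other chromosomes by 0.95 and 1.19 in migrated cells and by 0.80 and 0.96 in non-migrated cells. Against the 74 zinc finger genes of the short arm the members' sum differed by -0.32 and -0.11 in migrated cells and by -0.26 and -0.13 in non-migrated cells. The sign was thus the same in all 4 pairs for each of these groups, with no test, because the 2 sets could not bring an exact two-sided p to 0.05. By gene, 84 of 149 members (56.4%) were enriched, against 47 of 74 on the short arm (63.5%), 51 of 253 on other chromosomes (20.2%) and 108 of 614 other genes of the long arm (17.6%).

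**Figure D2:**
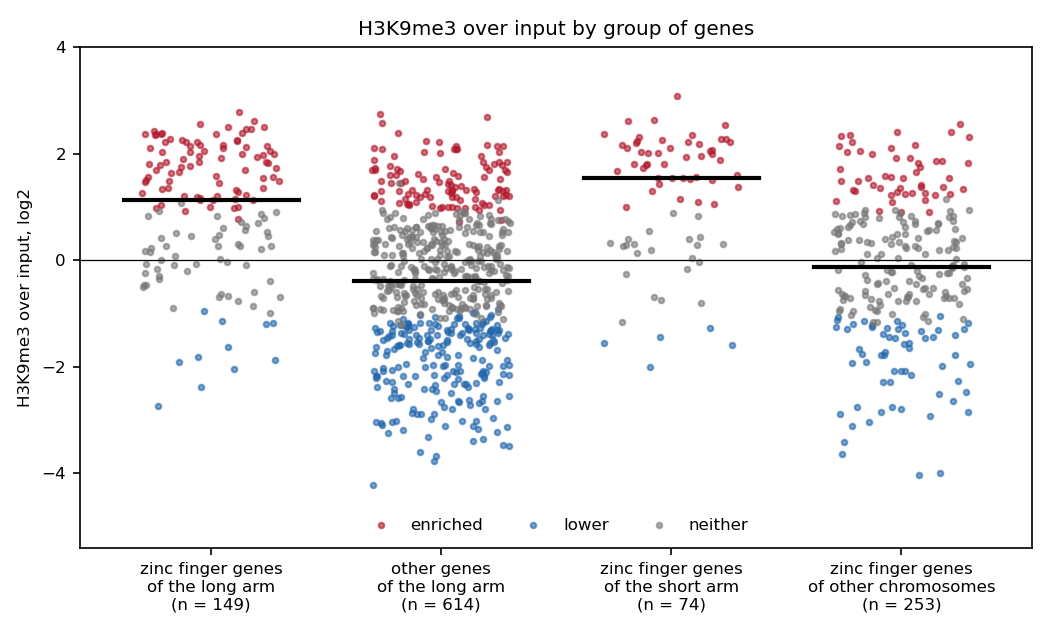
H3K9me3 over input (log2, both fractions and sets) of each gene in 4 groups, coloured by call, with a black line at the median. Zinc finger genes of the long arm had a median of 1.13, against -0.39 for other genes of the long arm, 1.54 for zinc finger genes of the short arm and -0.13 for those of other chromosomes.

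Along the arm the mark differed from cluster to cluster. Reads were summed over members in 1 Mb bins, and 12 of 19 bins were enriched and 5 lower (limma over 2970 sums of the genome), against 31.1% and 28.5% of all sums. The 12 enriched sums were above 0 in all 4 pairs of libraries, while 3 sums in place of 5 were lower without the H3K9me3 library of migrated cells of set 2 or that of non-migrated cells of set 1. Among bins with more than 5 members, the highest share was in chr19:53000001-54000000 (hg19), from ZNF808 to ZNF813, where 15 of 18 members were enriched with a median of 1.71. Its sum held 157 and 1991 reads in H3K9me3 of migrated cells and 308 and 1893 in H3K9me3 of non-migrated cells, against 367 and 820 in input of migrated cells and 227 and 889 in input of non-migrated cells. This gave 1.64 and 1.84 in migrated cells and 1.59 and 1.46 in non-migrated cells. The adjoining bin from ZNF175 to ZNF534 had 12 of 16 members enriched (median 1.63), with ZNF175 at its near end among those that were not. In the small bins from ZNF565 to ZNF566 and from ZNF571 to ZNF573 all members were enriched, 4 of 4 and 5 of 5.

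Other clusters were divided. In the bin from ZNF260 to ZNF793, 7 of 14 members were enriched, and in that from ZNF428 to ZNF229, which holds ZNF224 and ZNF45, 6 of 16 were. The bin from ZNF471 to ZNF772 began with 5 enriched members up to ZNF264 and went on with uncalled ones up to the enriched ZNF772, which gave 6 of 13 enriched and a median of 0.21. In the bin from ZNF579 to ZNF667, 5 of 12 members were lower and 4 enriched, with the lower ZNF579, ZNF784, ZNF580 and ZNF581 at the centromere side of the bin and the enriched ZNF582, ZNF583 and ZNF667 at its telomere side. The related ZSCAN5A and ZSCAN5B lay between them, lower and enriched. The last bin, from ZNF773 to ZNF446, held the most members and had 20 of 32 enriched and 2 lower. Between the clusters, the 3 members from ZNF546 to ZNF780A were uncalled one by one, and their sum was lower (-0.66 ± 0.25). Bins with 1 or 2 members held 2 enriched and 4 lower genes of 11.

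**Figure D3:**
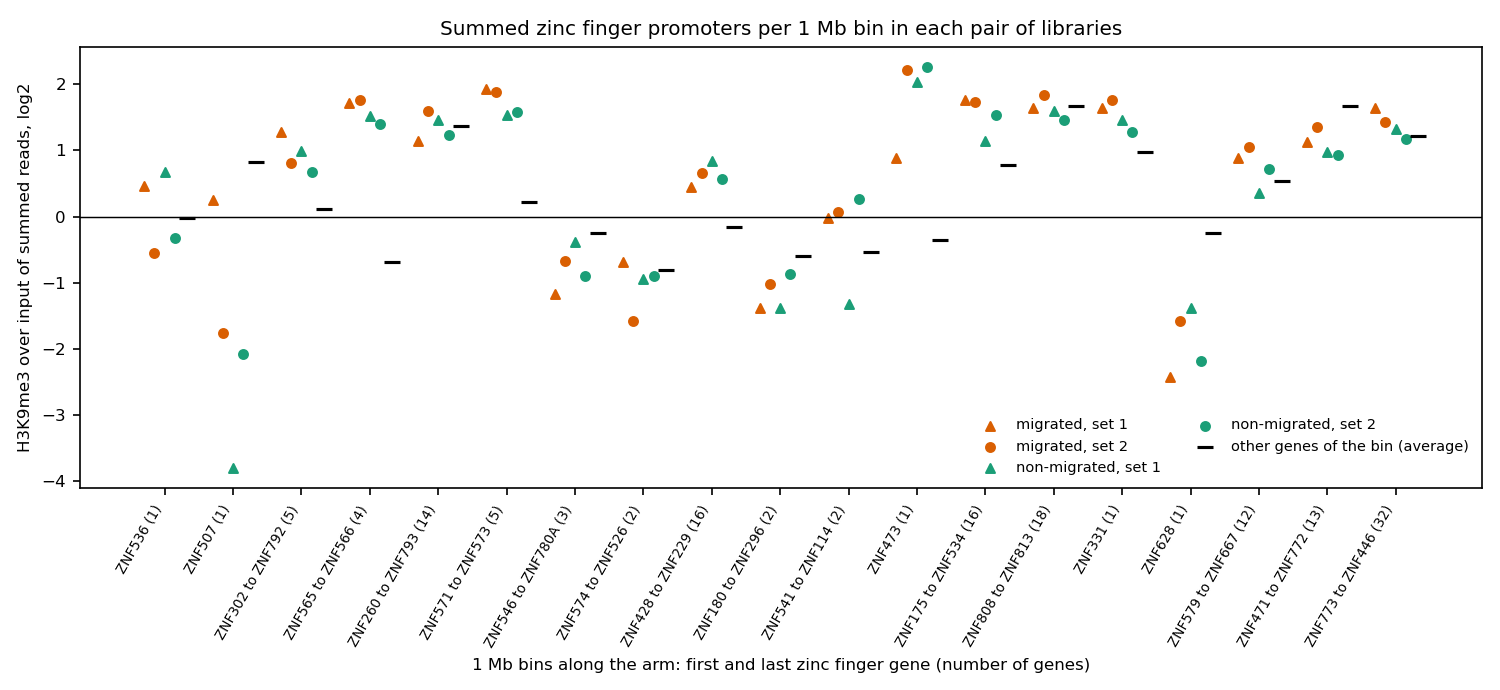
H3K9me3 over input (log2) of reads summed over zinc finger promoters in each of 19 bins of 1 Mb, by pair of libraries, with the average of the other genes of the bin as a bar. The 12 enriched bins are above 0 in all 4 pairs, and the points of set 1 scatter more where a bin holds 1 or 2 genes.

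Many enriched members followed one another in runs, counted over members only, so that other genes can lie between them. There were 25 runs of consecutive enriched members, of which 10 held at least 3 genes and 64 of the 84 enriched members together. The longest reached over 10 genes from ZNF814 to ZNF274 (chr19:58400342-58694496, hg19), with levels from 1.19 to 2.61. A run of 9 genes went from ZNF28 to ZNF677 with a median of 1.89, and a run of 8 from ZNF582 to ZNF264, which holds ZNF667, ZNF471 and ZFP28, with a median of 2.02. Other genes of the same bins did not always share the level of the members, nor did they always lie below it. These are all genes without a member symbol. On the arm they include the zinc finger genes ZIK1, ZIM2, HKR1, ZIM3, ZBTB32, ZBTB45 and MZF1. The members' sum was the higher in 11 of 19 bins. In the bin from ZNF808 to ZNF813 it lay at 1.64 and that of the other genes at 1.67. In the 12 bins whose member sum was enriched, the sum of the other genes was enriched in 7 and lower in 2. In the bin from ZNF565 to ZNF566 the members' sum lay at 1.59 ± 0.16 and that of 37 other genes at -0.69 ± 0.10. In the bin from ZNF471 to ZNF772 the members' sum lay at 1.12 ± 0.10 and that of 10 other genes at 1.67 ± 0.11.

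The start chosen within a gene also mattered for a few members. Of 28 members with several windows, 16 were enriched at all of them, 9 at none and 3 at some, with a median span of 0.38 between a gene's windows, of which some overlap and share reads. ZNF565 had the widest span. Its window with the most reads lay at 1.20 ± 0.40 and was enriched, while another, on the opposite strand, had 0 and 16 reads in H3K9me3 of migrated cells and 4 and 26 in H3K9me3 of non-migrated cells, against 23 and 90 in input of migrated cells and 17 and 89 in input of non-migrated cells. That window was lower, at -1.65 ± 0.43. ZNF446 lay at -1.81 and 0.76, ZNF787 at -1.45 and 1.08 and ZNF444 at -1.72 and 0.60, and in each of these 3 the negative window was called lower and the positive one was not called. For ZNF444 and ZNF787 the window with the most reads was the positive one, which lay on the strand opposite to the gene, so their values above do not describe the gene's own start. In ZNF787 that window held 0 reads in both libraries of non-migrated cells of set 1. Of 127 members matched to a RefSeq promoter, 10 had their chosen window on the opposite strand. With the window on the gene's own strand taken instead, 66 of 125 members were enriched and 13 lower.

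**Figure D4:**
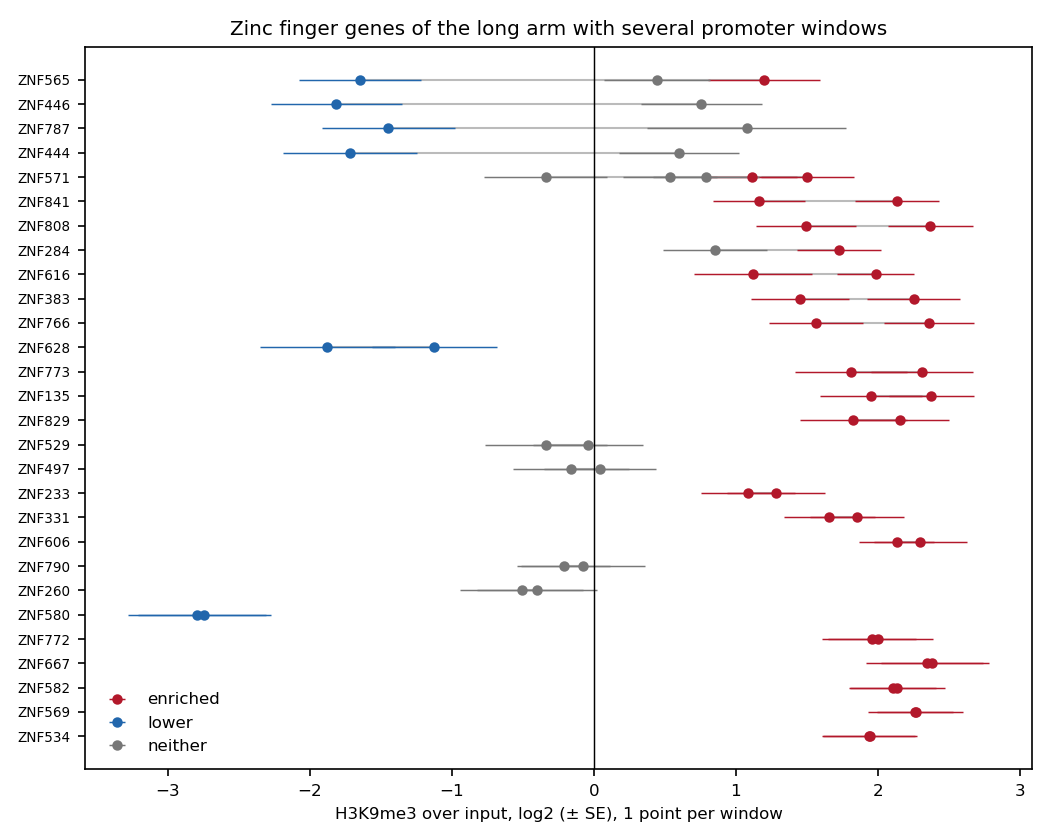
H3K9me3 over input (log2 with SE) of each window of the 28 members with several windows, 1 point per window, ordered by the span within the gene. ZNF565, ZNF446, ZNF787, ZNF444, ZNF571 and ZNF497 have windows on both sides of 0, and most others have windows of like level.

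The letters of the promoters were set beside the levels of the members. Because the match was by symbol, some of these promoters can lie outside the window that was measured. The 300-base promoters (250 bases before and 50 after the start) of the 127 matched members had a median of 23 CG dinucleotides, against 14 in 35116 promoters. The median was 23 in the 68 enriched members, 28 in the 11 lower ones and 21.5 in the 48 others. Over the 127 members the CG count and the H3K9me3 level correlated at r = -0.02 and the GC share and the level at r = -0.09, as descriptions over genes that share libraries and base composition. Of 6 motifs searched on both strands, CCGGAAG was found in 59 of 127 members (46.5%), against 10.3% of all promoters, 9.38% of those of other genes of the long arm, 38.1% of zinc finger promoters of the short arm and 34.6% of those on other chromosomes. It stood in 34 of 68 enriched and in 3 of 11 lower members. TATAAA was found in 1.57% of members, against 11.5% of all promoters, and CCAAT in 40.9% of members, against 34.6% of all promoters and 79.4% of zinc finger promoters of the short arm. GGGCGG was found in 61.4% of members, against 45.0% of all promoters, in 62.0% of other genes of the long arm and 59.2% of zinc finger promoters of other chromosomes, and in 81.0% of those of the short arm. AAGATGG was found in 9.45% of members, against 5.84% of all promoters, and TGACGTC in 1.57%, against 3.45%. A match is a description of these letters and not a bound site.

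The comparison of the series is between cells that crossed the membrane and cells that did not. Within migrated cells 88 members were enriched and 9 lower, against 13.3% and 29.8% of all windows. Within non-migrated cells 62 were enriched and 8 lower, against 3.83% and 16.6% of all windows. The 62 genes enriched in non-migrated cells were all enriched in migrated cells too, where they made up 70.5% of the calls. The higher number in migrated cells is no test of a difference. The median SE of a member was 0.37 in migrated and 0.49 in non-migrated cells, and the median level was 1.28 and 1.02. What each contributes to the counts was not tested. When the difference itself was tested, no member passed, up or down (limma, smallest adjusted p = 0.999), against 0% of all windows in either direction. A quasi-Poisson model of the reads also called 0. At an unadjusted p under 0.05 (limma) there were 5 of 149 members, all higher in migrated cells, and 1283 of 36440 windows (3.52%). The members' share was thus near that of all windows. Without the set 2 H3K9me3 library of migrated cells 8 members passed (5.37%, 4 up and 4 down), against 5.16% of all windows. Without that of non-migrated cells 6 passed (4.03%, 3 up and 3 down), against 3.85% of all windows. Both shares are near those of all windows.

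The 5 members were ZNF471, ZNF808, ZNF468, ZNF566 and ZNF880. ZNF471, a KRAB gene methylated in several carcinomas, held 202 and 223 scaled RPM in H3K9me3 of migrated cells and 56.5 and 148 in H3K9me3 of non-migrated cells, against 14.6 and 39.7 in input of migrated cells and 38.6 and 49.0 in input of non-migrated cells. The H3K9me3 libraries of migrated cells lay above those of non-migrated cells in both sets, and the change was 1.19 ± 0.39 (unadjusted p = 0.0045, adjusted p = 0.999, limma). By set the change of ZNF471 was 3.19 and 0.89. The value of set 1 rests on 21 H3K9me3 and 10 input reads in migrated cells and 10 and 15 in non-migrated cells. ZNF808, a gene needed for the human pancreas to form, gave 0.27 and 1.18 in sets 1 and 2, with a change of 1.05 ± 0.41. ZNF468 gave 0.65 and 0.95, with a change of 0.99 ± 0.40. On the other side, the members with the smallest p and a negative change in both sets were ZNF552 at -0.80 ± 0.52, ZNF580 at -1.15 ± 0.77 and ZNF304, a KRAB gene that silences tumour suppressor genes in colorectal cancer cells, at -0.82 ± 0.57. None of the 3 had an unadjusted p under 0.05.

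Over the summed reads, the members' share was higher in migrated than in non-migrated cells in the H3K9me3 libraries and lower in the inputs, in both sets. Members made up 1.16% and 1.34% of the window reads in H3K9me3 of migrated cells (sets 1 and 2) and 1.13% and 1.21% in H3K9me3 of non-migrated cells, against 0.452% and 0.458% in input of migrated cells and 0.502% and 0.495% in input of non-migrated cells. The change of the H3K9me3 share over the input share was 0.19 ± 0.07 in set 1 and 0.26 ± 0.03 in set 2 (log2, counting SE), with no test for 2 sets. These shares are of all window reads, without TMM, and the size of the change depends on that. On the TMM scale the summed members of set 1 lay at 1.13 ± 0.05 in migrated and 1.07 ± 0.05 in non-migrated cells. Those of set 2 lay at 1.54 ± 0.02 and 1.16 ± 0.02. In set 1 the H3K9me3 share differed by 0.04 and the input share by -0.15, and in set 2 by 0.15 and -0.11 (log2, migrated minus non-migrated). Relative to the other genes of chromosome 19 the change over the input share was 0.10 in set 1 and 0.28 in set 2. The 84 enriched members gave 0.30 and 0.31, and the 4231 enriched windows outside the members gave 0.20 and 0.20 by the same measure, both chosen by calls on these same reads. The 54 members called in neither direction gave -0.33 and -0.02. By gene, the change was above 0 in 73 members (49.0%) in set 1 and 114 (76.5%) in set 2, against 49.2% and 48.2% of all windows. It was above 0 in both sets in 62 members (41.6%), against 23.9% of all windows and 44.6% of the zinc finger genes of the short arm. By gene the shift is thus seen in set 2 and not in set 1, where the median change was -0.005. No bin sum changed (limma, smallest adjusted p = 0.672 among member bins). Of the 19 member bins 3 had an unadjusted p under 0.05, against 7.04% of all sums, and 10 were above 0 in both sets, against 27.2% of all sums.

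**Figure D5:**
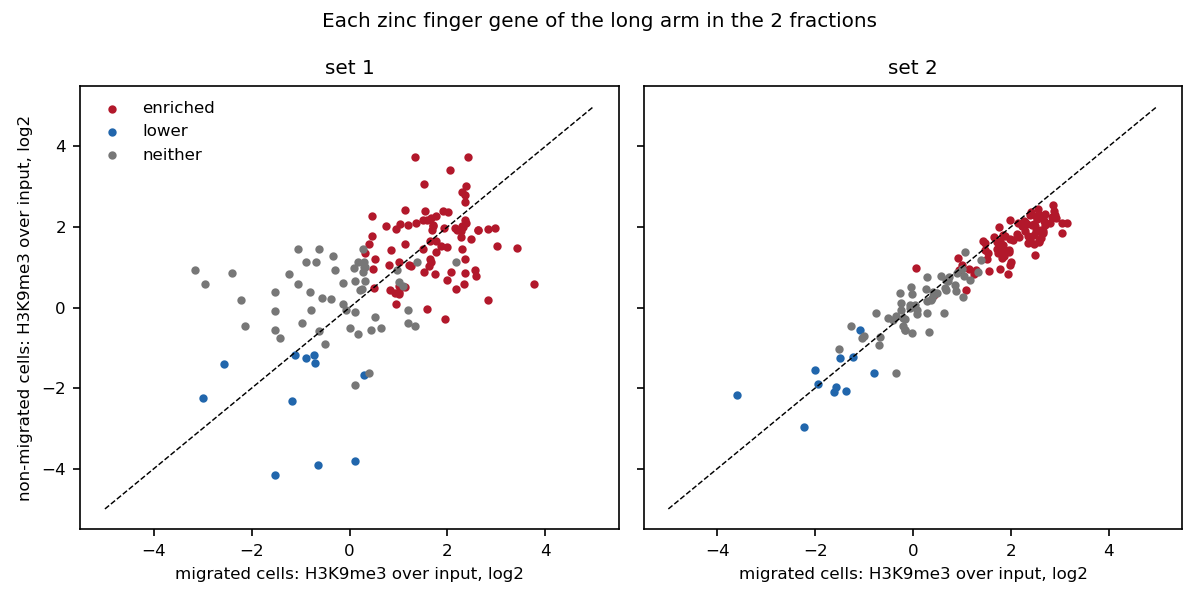
H3K9me3 over input (log2) of each member in migrated cells (x axis) and non-migrated cells (y axis), by set and coloured by call, with the line of equal values. The points scatter around the line in set 1 (r = 0.56), and in set 2 (r = 0.95) most enriched genes lie on its migrated side.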

How the data were processed

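The members and gene lists were chosen with earlier results of these data known. FastQC 0.11.5, Bowtie2 2.2.9, SAMtools 1.3 and hg19 are named in the submitters' processing notes; the sources used here do not give the counting program. Per the file headers the deposited values are log2, in 1 table for each set. They proved to be log2 of whole reads plus 1 constant for each library (100% within 0.01; windows without reads held log2 of 0.9), and the recovered reads were used. Windows usually span 2100 bases, 2000 upstream and 100 downstream of a start. Each carries a gene's name and may start an antisense or alternative transcript.

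Windows with the equivalent of 10 reads in at least 2 libraries and 15 in total were kept (36440). TMM was computed with 30% of ratios and 5% of levels trimmed. limma 3.58.1 in R 4.3.3 was fitted to voom values (offset 0.5) with set, ChIP, fraction, set by ChIP and fraction by ChIP as terms, 2 residual and 33.1 prior degrees of freedom, and Benjamini-Hochberg adjustment at 0.05. Sums over 1 Mb bins were fitted alike. The model was tested on simulated data. Counting SEs cover counting error only.

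The set was kept as a block, since the series describes paired sets, and set 2 as a second biological replicate. Same-numbered libraries deviated together with r = 0.147 (H3K9me3) and 0.469 (input), and between kinds of library at 0.053 to 0.268. P-values rest on 2 libraries a group. For 1 library (migrated H3K9me3, set 1) the replicate number follows its title, from which its description differs.

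Named genes were the 10 highest enriched members, the 5 lowest, members with a known role, up to 3 in each direction of change, and TRIM28; others were named after their values were seen. ZNF568, ZNF146 and protein features were not analysed here. Promoter sequences are from RefSeq, GRCh38.p14, and 127 of 149 symbols matched. A match by symbol does not place the RefSeq start inside the window.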

Additional observations from a re-analysis of the deposited data

Results flagged for a closer look

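ZNF304 and ZNF552 lay below 0 in migrated cells and above 0 in non-migrated cells in both sets. ZNF304 held 1 and 20 reads in H3K9me3 of migrated cells (sets 1 and 2) and 6 and 44 in H3K9me3 of non-migrated cells, against 20 and 41 in input of migrated cells and 9 and 48 in input of non-migrated cells. Its H3K9me3 over input was -1.05 and -0.26 in migrated cells and 0.59 and 0.35 in non-migrated cells, and the change was -0.82 ± 0.57. ZNF552 held 2 and 28 reads in H3K9me3 of migrated cells and 8 and 59 in H3K9me3 of non-migrated cells, against 26 and 49 in input of migrated cells and 8 and 58 in input of non-migrated cells. Its values were -0.68 and -0.04 in migrated cells and 1.13 and 0.50 in non-migrated cells, and the change was -0.80 ± 0.52. The test of the difference did not pass for either gene (limma, adjusted p = 0.999, with unadjusted p-values of 0.16 for ZNF304 and 0.14 for ZNF552).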

How the results depend on the processing

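These results shifted with the scale and between the sets, which differ in both depth and preparation. The cause of each shift below was not tested. With the scaling in the deposited values, which leaves most of the difference in depth uncorrected, 25 members were enriched and 26 lower (0.730% and 51.7% of all windows). In that setting 2 were enriched in migrated and 7 in non-migrated cells, and the median was 0.21. With library totals the median of all windows lay at -0.23 and with median-of-ratios factors at -0.44. Without the filter on low reads 7 were lower (24.8% of all windows). Set 1 alone gave 30 enriched and 3 lower (1% and 14.4% of all windows), and set 2 alone 108 and 16 (32.5% and 31.5%). The pooled change of set 1 was 0.10 relative to other genes of chromosome 19. With no replicate block 89 were enriched and 14 lower (16.0% and 34.5% of all windows), 0 changed, and the median was 1.21. In that setting 81 of the 84 enriched genes were kept.

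Leaving out each library in turn gave 66 to 98 enriched (4.36% to 22.4% of all windows) and 5 to 15 lower members (14.4% to 33.2% of all windows), 61 to 93 enriched in migrated and 22 to 84 in non-migrated cells, 0 to 8 changed, a median of 1.07 to 1.45, 12 to 12 enriched bins, 3 to 5 lower bins and 0 to 1 changed bins. The count of 3 lower bins was found when either the set 1 non-migrated or the set 2 migrated H3K9me3 library was left out. The lower count was 7 without the migrated input of set 1, 6 without that of set 2 and 5 without the non-migrated input of set 2, which also gave the 22. The changes appeared without the set 2 H3K9me3 library of migrated cells (8 genes and 1 bin, beside 5.16% of all windows and 0.506% of all sums) or of non-migrated cells (6 genes and 1 bin, beside 3.85% and 0.539%), with as many genes up as down. The median was 1.45 without the set 1 H3K9me3 library of migrated cells.

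Named genes near 0 changed sign. ZNF536 was -0.016 with median-of-ratios factors, -0.85 with the deposited scaling and -0.16 with no replicate block. ZNF224 was 0.024 with library totals, 0.20 without the filter and 0.12 with an offset of 2. ZNF304 was 0.015, 0.17 and 0.15 in the same 3 settings and 0.0019 with no replicate block. With the deposited scaling ZNF420 was -0.53, ZNF45 -0.65, ZNF444 -0.54 and ZNF552 -0.75. ZNF444 was -1.72 at its window with the most input reads, and ZNF175 was 0.038 in the quasi-Poisson model. Without single libraries ZNF224 ran from -0.17 to 0.34, ZNF304 from -0.23 to 0.34, ZNF175 from -1.60 to 0.74, ZNF444 from -0.26 to 1.43 and ZNF552 from -0.022 to 0.78.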
